A study of Homo sapiens with 7 samples.

Results

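The genes described here were 38 genes of glycolysis and of the response to low oxygen, out of 57189 genes counted in RH30 cells with and without the Smac mimetic BV6. They were taken by symbol from a given list of pathway genes, with no threshold on their values. It held 18 glycolytic enzymes, 4 glucose and lactate transporters, 3 kinases that set glycolytic flux, 4 HIF alpha subunits and prolyl hydroxylases, and 9 target genes of HIF. All 38 symbols were found in the count table. Counts were high enough for a test in 37 of them, and only CA9 stayed below the filter, with 0, 2, 7 and 7 counts in the untreated samples and 4, 2 and 12 in the BV6 samples.

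The RH30 line was derived from an alveolar rhabdomyosarcoma, a childhood tumor with features of skeletal muscle, and BV6 is a small molecule that imitates Smac and leads to the loss of cellular inhibitor of apoptosis proteins. The comparison was made between 4 untreated samples of wild-type (wt) RH30 cells and 3 samples kept for 24 h with 5 µM BV6 in the complete growth medium. According to the methods, the RH30 cells of the study carried GFP and luciferase, and cultures were held in a humidified, CO2-enriched atmosphere. No sample was labelled as hypoxic, so the comparison does not address oxygen itself. BV6 replicates 2, 3 and 4 each share an experiment label (BC13, BC14 and BC25) with the untreated replicate of the same number, while untreated replicate 1 (BC11) has no partner. What the label stands for, and whether the samples of a group came from separate cultures, was not given in the labels, and the study speaks of biological replicates.

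Glycolysis turns glucose into pyruvate, which lactate dehydrogenase then converts to lactate, and glucose and lactate cross the cell membrane through dedicated transporters. Under normal oxygen, prolyl hydroxylases of the EGLN family mark HIF alpha subunits for degradation through the VHL ligase. When oxygen falls, HIF alpha builds up, pairs with ARNT and switches on genes that carry its short recognition motif, among them many glycolytic enzymes, the glucose transporter SLC2A1, VEGFA and CA9. HIF alpha is controlled largely through protein stability, which counts of mRNA do not measure.

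The libraries held between 54070030 and 77220882 counts, so that 3 counts correspond to 0.0390 to 0.0557 CPM, the count of a gene scaled to a common library size. The treated cells carried a strong NF-κB response. BIRC3, which encodes cIAP2, stood at 1.64, 4.74, 1.26 and 2.12 CPM in the untreated samples and at 101.9, 57.1 and 52.3 CPM with BV6 (log2 fold change 4.86, adjusted p = 0.00341, edgeR quasi-likelihood test), and NFKBIA, the NF-κB inhibitor, had a log2 fold change of 2.17 (adjusted p = 0.0116, edgeR). The muscle markers MYOD1, MYOG and DES were well detected in every sample, MYF6 and TFAP2B were near the detection limit, and the summed level of 9 rhabdomyosarcoma markers was 1515 to 2060 CPM in untreated and 1076 to 1769 CPM in BV6 samples. The sums were 13.5 to 16.0 and 11.4 to 15.5 CPM for 9 leukocyte markers, 0.564 to 0.987 and 0.557 to 0.908 CPM for 4 epithelial markers, and 48.9 to 69.3 and 26.4 to 58.5 CPM for 3 endothelial markers. Nearly all of the endothelial sum came from PECAM1, at 48.4 to 68.2 CPM in untreated and 25.0 to 56.6 CPM in BV6 samples. NKG7 and CD68 made up most of the leukocyte sum. None of these cell type markers was called, and their part in the results was not tested. The BV6 replicate 3 library stood apart from the other 6 on the first principal component, which held 35.9% of the variance.

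With BV6, nearly all glycolysis and hypoxia genes were measured within a narrow range of their untreated level. None of the 37 tested members had an adjusted p below 0.05 in the edgeR quasi-likelihood test between the 2 conditions, in which 104 of 23124 genes (0.45%) were called. At an unadjusted p below 0.05 there were 3 members, PKM, PFKFB3 and ENO3, all higher with BV6. That is 8.11% of the members against 8.39% of all tested genes. The Wald test of DESeq2 also called 0 members, with 2 at an unadjusted p below 0.05. The median log2 fold change was 0.02 over the members and -0.01 over all tested genes, and 36 of the 37 members lay within 0.5 of no change on the log2 scale. The standard error of a member's log2 fold change ranged from 0.09 for BNIP3L to 0.42 for SLC16A3 with a median of 0.15. In RNA of whole cultures, fewer expressing cells and less RNA per cell cannot be told apart.

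**Figure D1:**
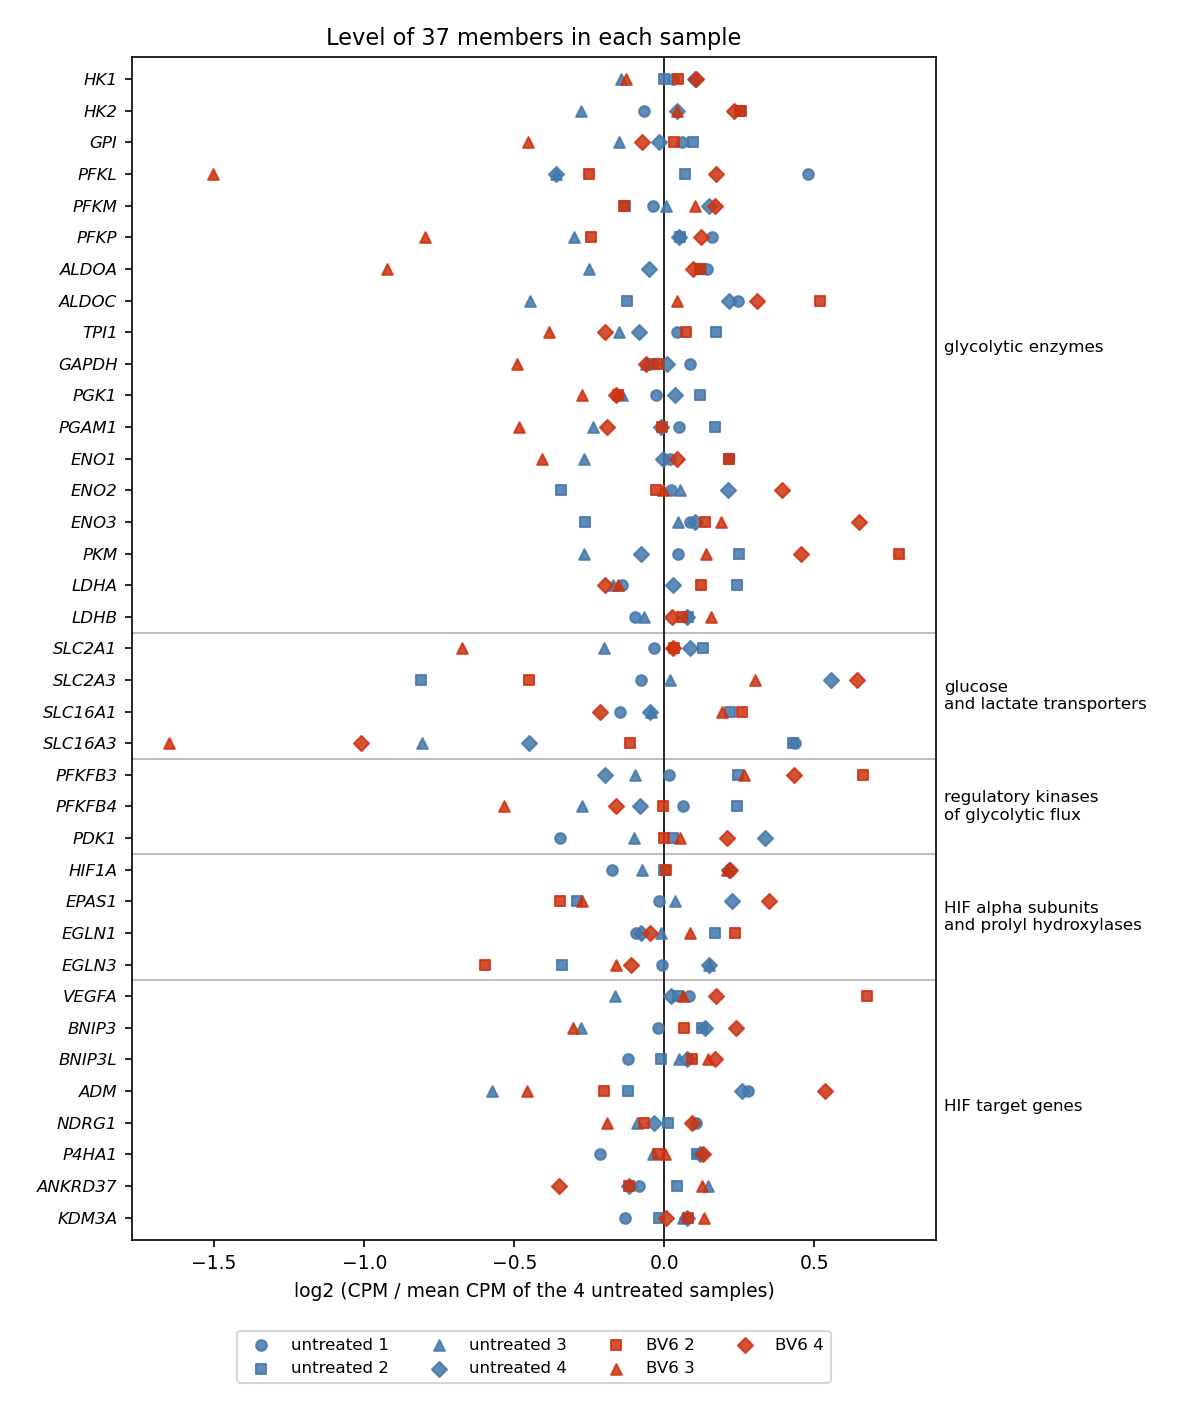
Level of each of the 37 tested members in each of the 7 samples, as log2 of its CPM over the mean CPM of the 4 untreated samples (horizontal axis), grouped by role, with untreated samples in blue, BV6 samples in red and 1 marker shape per replicate number. PKM and PFKFB3 lie to the right in all 3 BV6 samples, and the lowest points of PFKL, ALDOA and SLC16A3 all belong to BV6 replicate 3.

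When the shared experiment label was kept in the model as a replicate block, 1 of the 37 members (2.7%) was called against 218 of 23124 genes (0.943%). This member was PKM. At an unadjusted p below 0.05 in this edgeR fit there were 9 members (24.3%, against 11.4% of all tested genes), 5 of them higher with BV6. The groups did not overlap for 4 members (10.8%, against 8.83% of all tested genes): ENO3, PFKFB3 and BNIP3L lay higher and PGK1 lay lower with BV6. The direction was the same in all 3 pairs for 20 members (54.1%, against 33.3% of all tested genes), 11 of them higher and 9 lower.

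**Figure D2:**
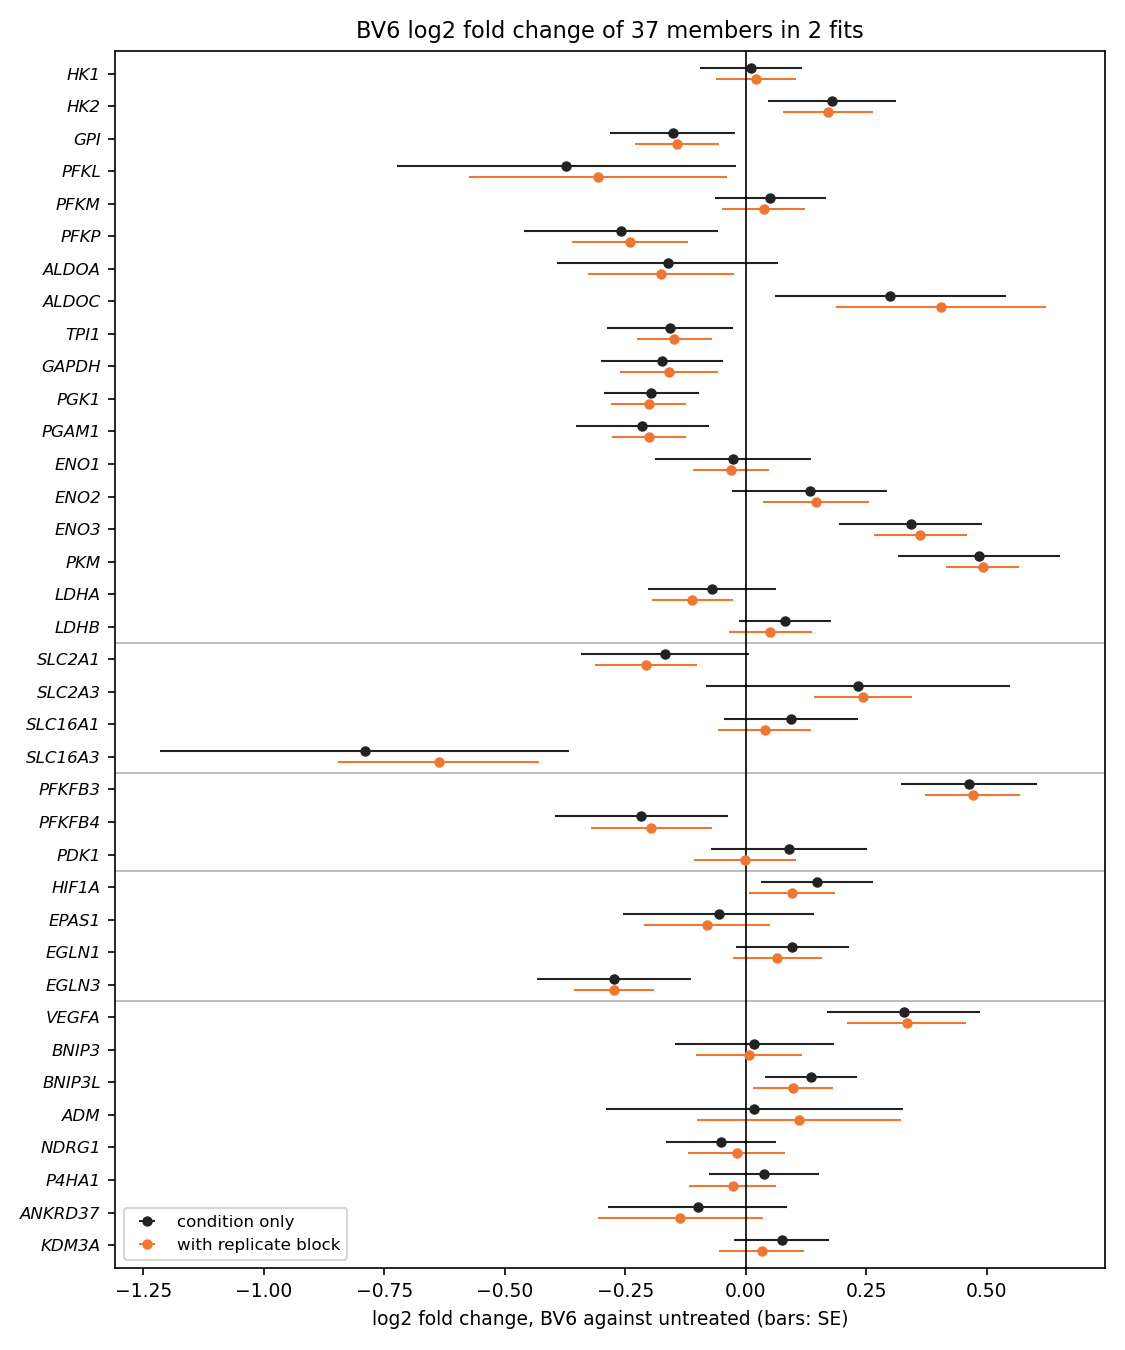
Log2 fold change of the 37 tested members between BV6 and untreated samples, with the standard error as bars, from the edgeR fit with the condition only (black) and from the fit with the replicate block (orange). Points scatter on both sides of 0 in every role, from -0.79 for SLC16A3 to 0.48 for PKM in the fit with the condition only.

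PKM, pyruvate kinase M, catalyzes the last step of glycolysis and lies on chromosome 15 (chr15:72199029-72231819, minus strand, GRCh38). It showed the largest positive difference among the members. Its level was 3175, 3655, 2554 and 2915 CPM in untreated replicates 1 to 4 and 5293, 3389 and 4219 CPM in BV6 replicates 2 to 4. The groups overlapped, because BV6 replicate 3 lay below untreated replicate 2, but within each pair the BV6 sample was higher, by 1.45-fold, 1.33-fold and 1.45-fold. Untreated samples averaged 3075 ± 463 CPM (SD, n = 4), compared with 4301 ± 954 CPM (SD, n = 3) after BV6. The edgeR log2 fold change was 0.48 ± 0.17 (SE) with an adjusted p of 0.438 for the condition only, and 0.49 ± 0.08 with an adjusted p of 0.0327 with the replicate block. Without the pair of replicate 2 the blocked log2 fold change was 0.48 with an adjusted p of 0.115 (edgeR), so that the call needed this pair. Without the BV6 replicate 2 sample alone, the fit with the condition only gave 0.31. Counts per gene do not separate the M1 and M2 isoforms of PKM.

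PFKFB3, which makes the fructose 2,6-bisphosphate that activates phosphofructokinase, lies on chromosome 10 (chr10:6144934-6254644, plus strand). Its level was 44.1, 51.7, 40.7 and 38 CPM in untreated and 69.1, 52.4 and 58.9 CPM in BV6 samples. All BV6 samples were above all untreated ones, the closest being BV6 replicate 3 and untreated replicate 2. The log2 fold change was 0.46 ± 0.14 (edgeR, adjusted p = 0.331) and 0.47 ± 0.10 with the replicate block (adjusted p = 0.0921), and DESeq2 with the block gave an adjusted p of 0.0313. PFKFB4, another gene of the same family of bifunctional enzymes, stood at 11.2, 12.7, 8.88 and 10.1 CPM in untreated and 10.7, 7.40 and 9.58 CPM in BV6 samples. It was lower with BV6 in each pair, with a log2 fold change of -0.22 ± 0.18 and an adjusted p of 0.779 (edgeR), and of -0.08 without BV6 replicate 3. PDK1, which inhibits pyruvate dehydrogenase, had overlapping groups and a log2 fold change of 0.09 ± 0.16.

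ENO3, the muscle form of enolase, lies on chromosome 17 (chr17:4948092-4957131, plus strand). It was measured at 493.5, 387.0, 480.3 and 498.5 CPM in untreated and at 510.3, 529.9 and 728.3 CPM in BV6 samples. The groups did not overlap, and untreated replicate 2 was far below the other untreated samples. The log2 fold change was 0.34 ± 0.15 (edgeR, adjusted p = 0.583), and 0.36 ± 0.10 with the block (adjusted p = 0.19). Without BV6 replicate 4, the highest sample, the log2 fold change was 0.16. The ubiquitous enolase ENO1 was at 1843, 2114, 1511 and 1813 CPM in untreated and 2113, 1372 and 1876 CPM in BV6 samples, with a log2 fold change of -0.03 ± 0.16. Its groups overlapped, with BV6 replicate 3 below every untreated sample, while ENO2, the neuronal form, had a log2 fold change of 0.13 ± 0.16.

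PGK1, phosphoglycerate kinase and a classic HIF target, lies on the X chromosome (chrX:77910739-78129295, plus strand). It stood at 585.5, 648.0, 541.2 and 611.1 CPM in untreated and at 536.4, 492.8 and 533.1 CPM in BV6 samples. All BV6 samples were below all untreated ones, with untreated replicate 3 and BV6 replicate 2 close to each other. The log2 fold change was -0.20 ± 0.10 (edgeR, adjusted p = 0.644) and -0.20 ± 0.08 with the block (adjusted p = 0.385). Processed pseudogenes of PGK1, PGAM1, GAPDH and LDHA may share reads with these genes, since the treatment of reads with several positions was not given in the sources used here.

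Promoters are shown for PKM, the member called with the replicate block, and for PFKFB3, ENO3 and PGK1, 3 of the 4 members whose groups did not overlap, because HIF is known to act through a short motif in promoters. The windows run from 250 bases before to 50 bases after a RefSeq gene start, 5′ to 3′ on the strand of the gene (GRCh38.p14). Capitals mark ACGTG or GCGTG on either strand, the core of the HIF recognition motif, and adjoining or overlapping matches run together. The positions are chr15:72231141-72231440 (minus) for PKM, chr10:6202682-6202981 (plus) for the second of the PFKFB3 windows listed, chr17:4950302-4950601 (plus) for ENO3 and chrX:78103998-78104297 (plus) for PGK1.
PKM: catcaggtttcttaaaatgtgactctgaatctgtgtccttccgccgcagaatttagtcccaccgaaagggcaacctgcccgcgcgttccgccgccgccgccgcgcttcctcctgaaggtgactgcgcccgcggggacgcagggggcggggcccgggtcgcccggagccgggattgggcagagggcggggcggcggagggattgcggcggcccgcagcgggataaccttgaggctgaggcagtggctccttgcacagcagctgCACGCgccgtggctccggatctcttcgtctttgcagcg
PFKFB3: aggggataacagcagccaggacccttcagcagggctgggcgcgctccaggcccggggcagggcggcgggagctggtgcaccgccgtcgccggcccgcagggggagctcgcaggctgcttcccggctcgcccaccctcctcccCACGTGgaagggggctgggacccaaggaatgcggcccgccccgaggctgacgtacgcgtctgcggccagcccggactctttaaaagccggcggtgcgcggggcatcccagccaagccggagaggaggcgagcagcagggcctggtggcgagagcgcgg
ENO3: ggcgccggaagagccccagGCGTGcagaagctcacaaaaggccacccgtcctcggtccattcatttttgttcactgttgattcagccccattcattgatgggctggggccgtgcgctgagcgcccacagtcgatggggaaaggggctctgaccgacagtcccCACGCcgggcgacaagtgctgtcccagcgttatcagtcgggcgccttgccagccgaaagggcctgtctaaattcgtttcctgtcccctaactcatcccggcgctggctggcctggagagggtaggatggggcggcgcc
PGK1: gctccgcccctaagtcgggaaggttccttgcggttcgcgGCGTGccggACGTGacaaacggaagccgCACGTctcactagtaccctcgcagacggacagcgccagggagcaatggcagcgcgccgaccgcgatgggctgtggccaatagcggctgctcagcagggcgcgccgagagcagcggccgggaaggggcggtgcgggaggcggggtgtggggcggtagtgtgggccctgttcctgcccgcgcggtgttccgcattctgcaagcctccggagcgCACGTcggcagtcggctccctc
The PKM window held 1 match and the ENO3 window 2. The other ENO3 window listed (chr17:4950869-4951168) held 0 and the other PFKFB3 window (chr10:6144671-6144970) held 1, so that for both genes the window with more matches is printed. The PFKFB3 window shown held 2 that overlap in a single palindrome, since CACGTG reads the same on both strands, and the PGK1 window held 4. RefSeq promoters were listed for 33 members in 62 windows, and 42 of these windows (67.7%) had a match, against 17012 of all 35116 windows (48.4%). The members include known HIF targets by choice, so these shares are not a test of the list. Windows of the same gene can overlap, and both KDM3A windows hold the same match. For 31 of the 33 members at least 1 window had a match, while the windows of EGLN3 and PGAM1 held 0. Some members have several windows, and the share per gene over all genes was not computed. Matches are letters in a window and do not show binding, and PKM, PFKFB3 and ENO3 lay higher with BV6 whereas PGK1 lay lower.

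**Figure D3:**
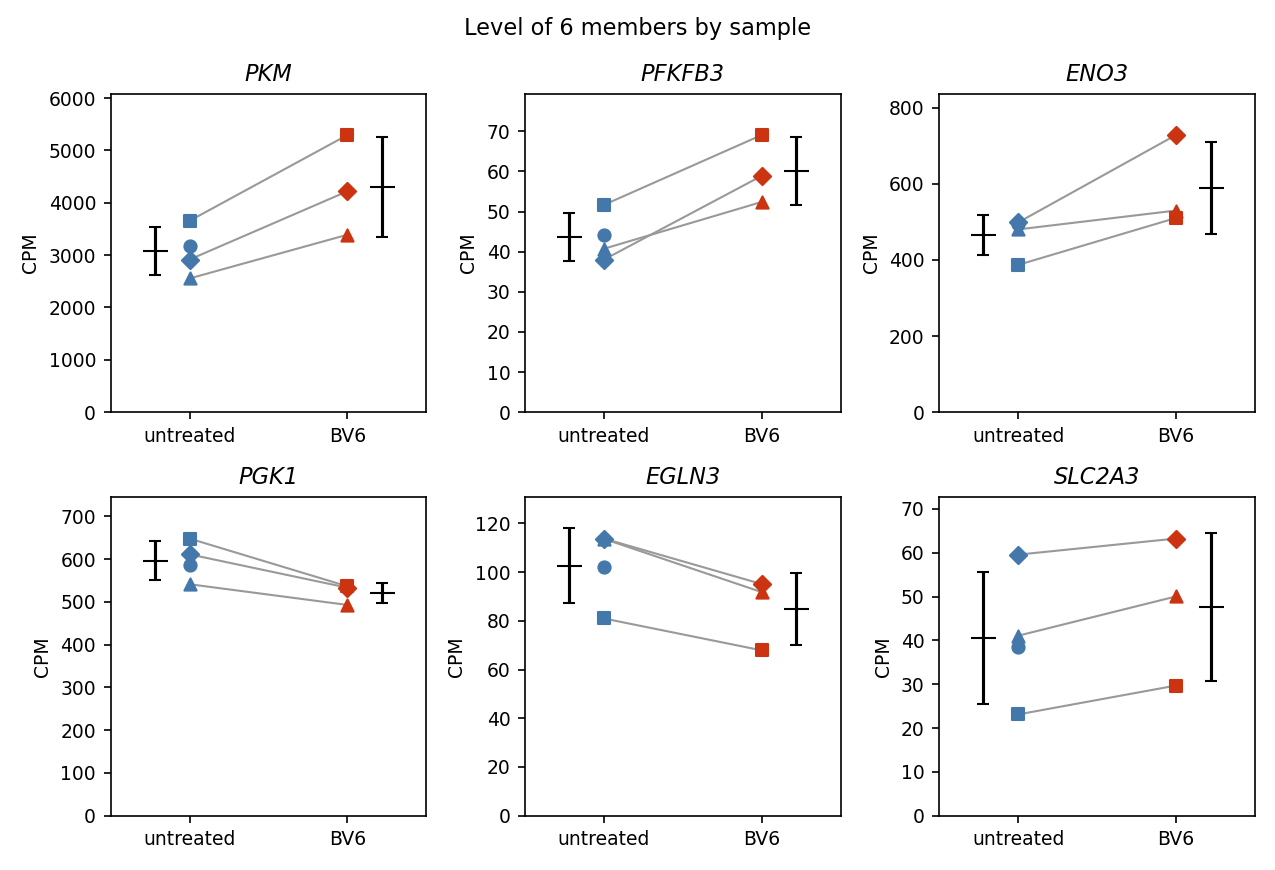
CPM of PKM, PFKFB3, ENO3, PGK1, EGLN3 and SLC2A3 in untreated (blue) and BV6 (red) samples, with grey lines between samples that share an experiment label, a separate marker shape for each replicate number, and the mean and SD of each group in black beside the points. PKM, PFKFB3 and ENO3 go up and PGK1 and EGLN3 go down along all 3 lines, and the lines of SLC2A3 keep the order of the experiments.

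Among the remaining enzymes, the first step is carried out by hexokinase. HK2 was at 111.5, 139.0, 96.4 and 120.4 CPM in untreated and 139.5, 120.2 and 137.3 CPM in BV6 samples, with overlapping groups and a log2 fold change of 0.18 ± 0.13. HK1 was at a log2 fold change of 0.01 ± 0.11, and glucose-6-phosphate isomerase GPI at -0.15 ± 0.13. Of the phosphofructokinases, which catalyze the committed step, PFKM was at 0.05 ± 0.11, PFKP at -0.26 ± 0.20 and PFKL at -0.37 ± 0.35. PFKL varied widely between samples. Its levels were 97.9, 73.7, 54.6 and 54.7 CPM in untreated and 59.0, 24.7 and 79.2 CPM in BV6 samples, so that it was lower with BV6 in pairs 2 and 3 and higher in pair 4.

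The aldolase ALDOA was at 765.8, 754.6, 583.0 and 669.8 CPM in untreated and 753.0, 365.3 and 741.0 CPM in BV6 samples. Only BV6 replicate 3 was low, and without it the log2 fold change turned from -0.16 to 0.11. By the annotation, 42.8% of the exonic bases of ALDOA are shared with another gene on the same strand. GAPDH, a glycolytic enzyme often used as a reference gene, was at 4150, 3813, 3747 and 3930 CPM in untreated and 3857, 2785 and 3750 CPM in BV6 samples. Again BV6 replicate 3 was the lowest, and the log2 fold change of -0.17 ± 0.13 became -0.04 without it. TPI1 (-0.16 ± 0.13) and PGAM1 (-0.21 ± 0.14) had overlapping groups, but both were lower with BV6 in every pair. For PGAM1 the folds were 0.884, 0.844 and 0.882, and the blocked log2 fold change was -0.20 ± 0.08 (adjusted p = 0.38, edgeR). LDHA (-0.07 ± 0.13) and LDHB (0.08 ± 0.10), the subunits of lactate dehydrogenase, were on opposite sides of 0. ALDOC was scarce, with 61 to 126 counts per library and a log2 fold change of 0.30 ± 0.24. The 18 enzymes together took 1.44% ± 0.10 (SD, n = 4) of all counts in untreated and 1.49% ± 0.20 (SD, n = 3) in BV6 samples.

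The transporters did not share a direction. SLC2A1 (GLUT1), a glucose importer and HIF target, was at 122.8, 137.6, 109.6 and 133.5 CPM in untreated and 128.7, 78.9 and 128.5 CPM in BV6 samples, with BV6 replicate 3 lowest. Its log2 fold change was -0.17 ± 0.17 (edgeR, adjusted p = 0.821), and 0.03 without that sample. SLC16A1 (MCT1), which moves lactate and pyruvate, was at a log2 fold change of 0.09 ± 0.14. SLC16A3 (MCT4), the lactate exporter of glycolytic cells, was near the bottom of the range with 203, 147, 67 and 88 counts in untreated and 101, 38 and 52 counts in BV6 samples. It was lower with BV6 in every pair and had the largest negative log2 fold change of the members, -0.79 ± 0.42, with an adjusted p of 0.677 (edgeR). It was -1.30 without BV6 replicate 2 and -0.49 without BV6 replicate 3.

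Of the HIF machinery itself, no gene was called for the condition. HIF1A, the alpha subunit of HIF-1, was at 399.7, 450.9, 428.5 and 524.0 CPM in untreated and 453.0, 520.6 and 524.9 CPM in BV6 samples. Its groups overlapped, pairs 2 and 4 were almost level and only pair 3 stood out with 1.21-fold, for a log2 fold change of 0.15 ± 0.12 (edgeR, adjusted p = 0.771). EPAS1, which encodes HIF-2 alpha, was at -0.06 ± 0.20 and the oxygen-sensing prolyl hydroxylase EGLN1 at 0.10 ± 0.12, the latter with 55.8% of its exonic bases shared with another gene on the same strand. EGLN3, a prolyl hydroxylase that is itself induced by HIF, lies on chromosome 14 (chr14:33924227-34462774, minus strand). It was at 102.1, 81.0, 113.7 and 113.8 CPM in untreated and 67.9, 91.8 and 95.1 CPM in BV6 samples. The groups overlapped through the low untreated replicate 2, but each BV6 sample was below its partner, at 0.838-fold, 0.808-fold and 0.836-fold. The log2 fold change was -0.27 ± 0.16 (edgeR, adjusted p = 0.708) and -0.27 ± 0.08 with the block (adjusted p = 0.255), and it was -0.13 without BV6 replicate 2.

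No HIF target gene was called for the condition, and the 8 tested ones had a median log2 fold change of 0.03 with a range from -0.10 to 0.33. VEGFA, the angiogenic growth factor, was at 31.1, 30.3, 26.2 and 29.9 CPM in untreated and 46.9, 30.6 and 33.1 CPM in BV6 samples. BV6 replicate 2 alone was clearly above the rest, with a log2 fold change of 0.33 ± 0.16 for the groups (edgeR, adjusted p = 0.625) that was 0.12 without that sample. BNIP3L, a mitophagy receptor, was at 80.8, 87.2, 90.8 and 92.5 CPM in untreated and 93.5, 97.1 and 98.8 CPM in BV6 samples. Its groups did not overlap, and each BV6 sample was 1.07-fold its partner, but the log2 fold change was only 0.14 ± 0.09 with an adjusted p of 0.747 (edgeR). The related receptor BNIP3 (0.02 ± 0.16), the peptide hormone ADM (0.02 ± 0.31), NDRG1 (-0.05 ± 0.11), the collagen prolyl hydroxylase P4HA1 (0.04 ± 0.11), ANKRD37 (-0.10 ± 0.19) and the histone demethylase KDM3A (0.07 ± 0.10) lay within their standard error of 0. ANKRD37 shares 40.3% of its exonic bases with UFSP2 on the opposite strand and CA9 35.7% with ARHGEF39. CA9, a carbonic anhydrase and one of the most hypoxia-dependent HIF targets, had at most 12 counts in a library and was near the detection limit in both conditions. The 9 HIF targets together took 0.0308% to 0.0342% of all counts in untreated and 0.0345% to 0.0353% in BV6 samples. Every BV6 sample was thus slightly above every untreated one in this sum of raw counts, for which no test is given. With the scaled CPM values used elsewhere, the 9 targets sum to less in BV6 replicate 3 than in untreated replicate 4, so that the groups overlap.

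Levels of different genes were compared per kb of exon, as CPM per kb. On this scale GAPDH led the members in untreated cells with 1632 ± 73.8 (SD, n = 4), followed by PKM with 359 ± 54.03, ENO1 with 349 ± 47.3 and LDHB with 345 ± 22.2, and these 3 did not differ beyond their spread. With canonical transcript lengths instead, the means were 1334 for PKM, 1022 for ENO1 and 791 for LDHB, so that this tie holds for union exons only. On union exons TPI1 followed with 282 ± 28.1. HIF1A, at 87.5 ± 10.3, exceeded each of the 9 HIF targets, which were led by BNIP3L at 21.2 ± 1.25, while SLC16A3 was at 0.211 ± 0.086 and CA9 at 0.041 ± 0.036. In mRNA of untreated cells, SLC16A1 was at 99.6% ± 0.17 of the summed SLC16A1 and SLC16A3 level. HIF1A was at 97.6% ± 0.31 of the summed HIF1A and EPAS1 level. Further genes of these families were not in the sums, and protein was not measured. LDHB made up 73.5% ± 1.6 of the summed LDHA and LDHB level. ENO1 made up 74.7% ± 4.3 of the summed ENO1, ENO2 and ENO3 level, with ENO3 at 23.5% ± 3.9. LDHB shares 33.4% of its exonic bases with another gene on the same strand.

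Between the conditions, the share of the first-named gene separated the groups in 1 of 11 such families. Among all tested genes, 8.83% had groups without overlap, PFKFB3 among them, so that 1 in 11 is close to that share. A share for families of other genes was not computed. PFKFB3 accounted for 79.7%, 80.3%, 82.1% and 78.9% of the summed PFKFB3 and PFKFB4 level in untreated and for 86.6%, 87.6% and 86.0% in BV6 samples. All 3 BV6 samples were above all 4 untreated ones, and BV6 replicate 3 was the highest of all although both genes were at their lowest BV6 level there. The means were 80.3% ± 1.3 (SD, n = 4) and 86.7% ± 0.82 (SD, n = 3), and with canonical transcript lengths they were 76.0% ± 1.5 and 83.6% ± 0.97. No p is given for this ratio, and with 4 against 3 samples an exact two-sided permutation test could not go below 0.0571.

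**Figure D4:**
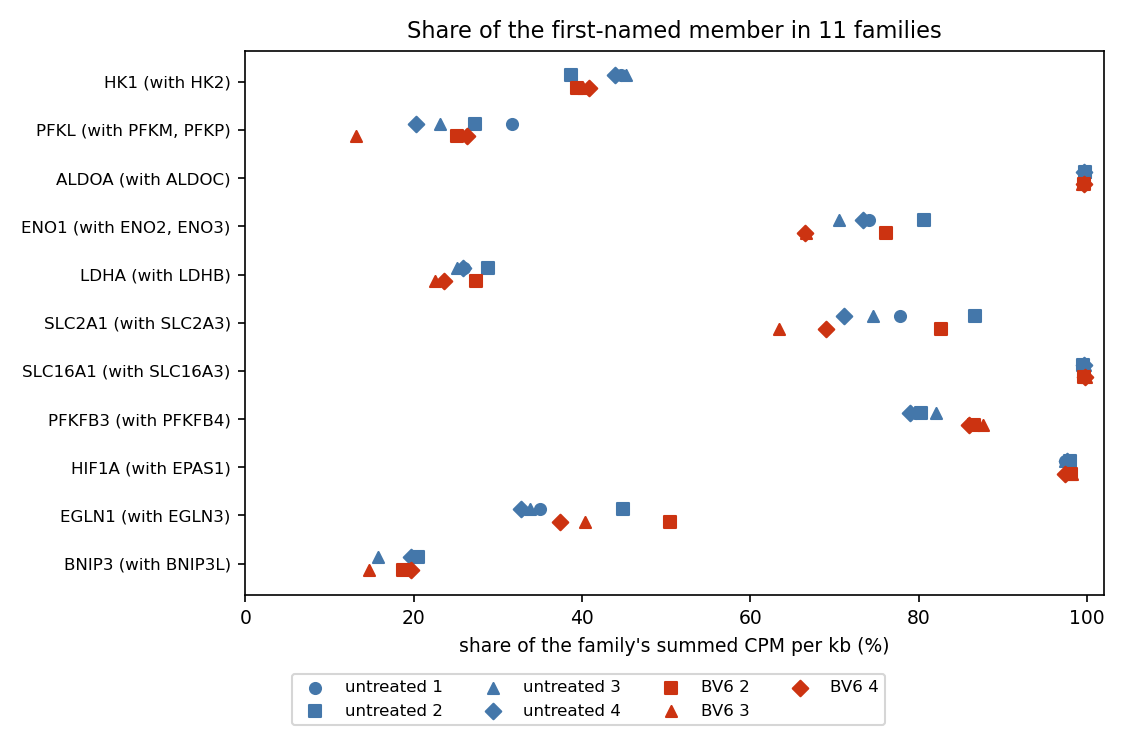
Share of the first-named member in the summed CPM per kb of its family, in percent, for 11 families in each of the 7 samples, with untreated samples in blue, BV6 samples in red and 1 marker shape per replicate number. Only the PFKFB3 row shows red and blue points apart, with 78.9% to 82.1% in untreated and 86.0% to 87.6% in BV6 samples.

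The experiments also differed from each other for some members. With the condition held in the model, the experiment label was called for 3 of the 37 members (8.11%) against 833 of 22746 genes (3.66%) in an edgeR test on the 6 paired samples. SLC2A3 (GLUT3), a glucose transporter of high affinity, was at 38.5, 23.1, 41.1 and 59.6 CPM in untreated and 29.7, 50.01 and 63.2 CPM in BV6 samples. It was lowest in replicate 2 and highest in replicate 4 in both conditions, with an adjusted p of 0.00833 for the experiment (edgeR). Between the conditions, its log2 fold change was 0.23 ± 0.32 (adjusted p = 0.863, edgeR), and 0.24 ± 0.10 with the replicate block (adjusted p = 0.422, edgeR). Each BV6 sample was above its partner, by 1.29-fold, 1.22-fold and 1.06-fold. The near-identical paralog SLC2A14, which may share reads with SLC2A3, showed the same order at 2.67 to 7.84 CPM (adjusted p = 0.0306, edgeR). PKM (adjusted p = 0.0368) and ENO1 (adjusted p = 0.0467) were the other members called for the experiment by edgeR, both highest in replicate 2 and lowest in replicate 3 in each condition. When untreated replicate 1 was added to this fit, SLC2A3 alone was called (adjusted p = 0.0466, edgeR).

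Base composition went with the differences in pairs 3 and 4, in opposite directions. Across the 37 members, the log2 difference within a pair was compared with the exonic GC content, as a description across genes that share libraries. Pearson's r was -0.02 in pair 2, -0.52 in pair 3 and 0.28 in pair 4, and Spearman's rho was -0.04, -0.39 and 0.36. All 17823 tested genes with a known GC content and counts in every sample showed the same signs, with r of -0.05, -0.46 and 0.20. In pair 3 the 13 members with at least 55% GC had a median log2 difference of -0.23, and the 24 others one of 0.03. In pair 4 these medians were 0.15 and 0.01. PFKL (64.6% GC), SLC16A3 (66.0%), GAPDH (59.8%) and ALDOA (57.3%) were among those at the low end in pair 3. PKM (54.1%), PFKFB3 (55.9%) and ENO3 (57.1%) were higher with BV6 in pair 3 as well.

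**Figure D5:**
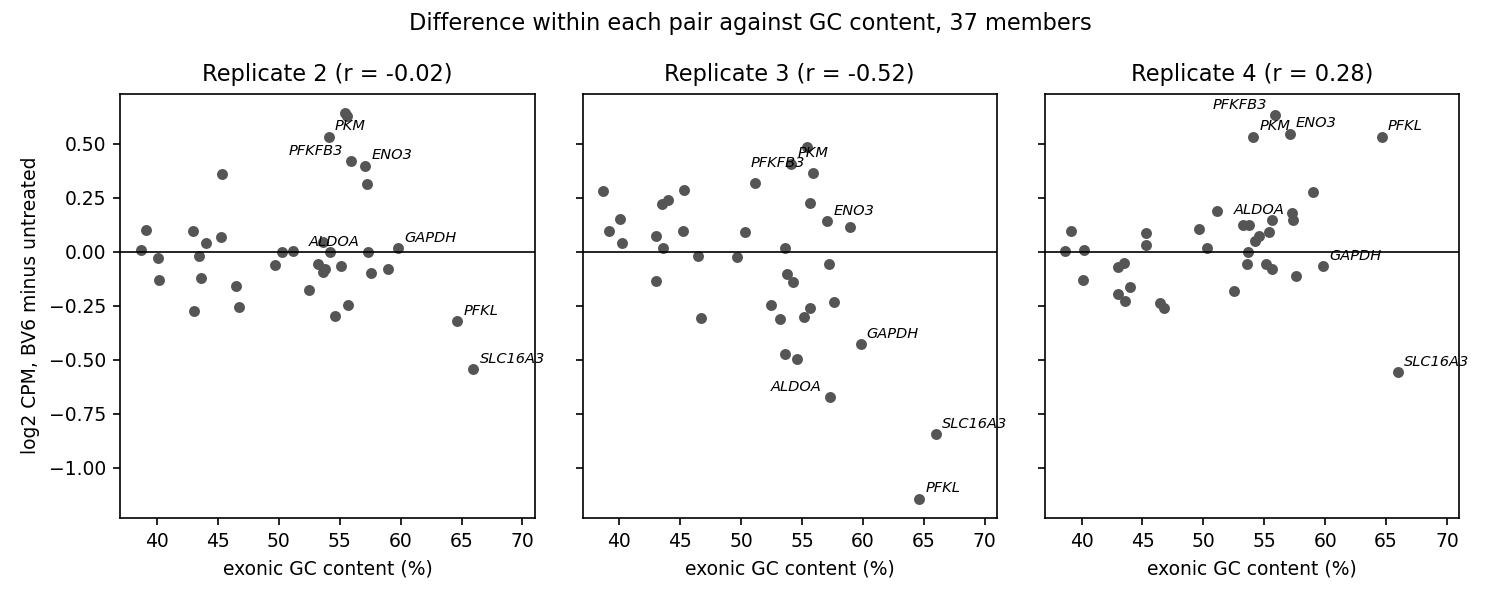
Log2 difference in CPM between the BV6 and the untreated sample of each pair (vertical axis) against exonic GC content in percent (horizontal axis), with 1 point for each of the 37 tested members and 1 panel per pair, and r for Pearson's correlation across the members. Members of high GC content lie low in pair 3 and not in pair 4, and PKM, PFKFB3 and ENO3 are above 0 in all 3 panels.

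With the GC content of each library fitted out and the replicate block in the same edgeR fit, 5 of the 37 members (13.5%) were called against 1170 of 17928 genes (6.53%). PKM (log2 fold change 0.53, adjusted p = 0.000538), PFKFB3 (0.53, adjusted p = 0.00177) and ENO3 (0.44, adjusted p = 0.00151) were higher with BV6. EGLN3 (-0.29, adjusted p = 0.0181) and PGK1 (-0.23, adjusted p = 0.0493) were lower. PKM, PFKFB3 and ENO3 were also called in this fit when any 1 of the 3 pairs was left out. EGLN3 was not called without pair 2 or pair 3 (adjusted p = 0.196 and 0.0667, edgeR), and neither was PGK1 (adjusted p = 0.393 and 0.0805, edgeR). With all pairs PFKL was at -0.08, GAPDH at -0.03 and SLC16A3 at -0.41, each closer to 0 than without the correction. GC content was known for all 37 members but for 77.5% of all tested genes, so that the 1170 calls cannot be set against a count over all tested genes. On the same genes without the correction, the edgeR fit with the block called 232 genes and 1 member. What raised the count was not tested.

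The wider pathway was read from 91 further genes of glycolysis, pyruvate entry and the HIF response, of which 78 passed the filter. None was called by edgeR for the condition only, with 9 (11.5%) at an unadjusted p below 0.05, and 1 was called with the replicate block. The groups did not overlap for 4 of them (5.13%, against 8.83% of all tested genes), and the direction was the same in all 3 pairs for 25 (32.1%, against 33.3%), so that neither share was above the background. By role, the median log2 fold change was 0.09 over 12 further enzymes, -0.28 over 7 transporters, 0.02 over 11 genes of pyruvate entry, 0.07 over 13 genes of the HIF pathway and -0.02 over 35 HIF targets.

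The gene called with the block was P4HA2, a collagen prolyl hydroxylase and HIF target on chromosome 5 (chr5:132190147-132295315, minus strand). It was at 8.28, 10.4, 13.4 and 11.4 CPM in untreated and 19.1, 21.3 and 28.03 CPM in BV6 samples. Every BV6 sample was above every untreated one, with folds of 1.84, 1.59 and 2.47 in the pairs. The log2 fold change was 1.07 ± 0.19 (edgeR, adjusted p = 0.0551), 0.95 ± 0.15 with the block (edgeR, adjusted p = 0.0354), and DESeq2 gave an adjusted p of 0.000104. Its relative P4HA1, a member, was at 54.4, 68.1, 61.5 and 68.5 CPM in untreated and 62.2, 63.2 and 68.9 CPM in BV6 samples, with fully overlapping groups.

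The other genes whose groups did not overlap acted in or downstream of the HIF pathway. ARNT2, a partner of HIF alpha, was at 4.08, 6.27, 3.90 and 3.38 CPM in untreated and 7.19, 7.16 and 6.78 CPM in BV6 samples, for a log2 fold change of 0.68 ± 0.22 (edgeR, adjusted p = 0.369). With GC correction and the block its adjusted p was 0.047 (edgeR). VHL, the ligase subunit that recognizes hydroxylated HIF alpha, was at 55.5 to 61.8 CPM in untreated and 64.2 to 71.7 CPM in BV6 samples, a log2 fold change of 0.24 ± 0.10 (adjusted p = 0.56, edgeR). PLOD1, a lysyl hydroxylase of collagen, was lower, at 187.5 to 224.7 CPM in untreated and 99.6 to 178.4 CPM in BV6 samples, a log2 fold change of -0.51 ± 0.18 (adjusted p = 0.438, edgeR), with its lowest level in BV6 replicate 3. Without that sample it was -0.31, and the adjusted p was 0.203 with the block and 0.00615 with GC correction and block (edgeR), while DESeq2 with the block also called it. With the experiment label as the term tested, 7 of the 78 genes (8.97%) were called by edgeR, against 3.66% of all genes tested.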

How the data were processed

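RNA of 7 RH30 samples, 4 untreated and 3 treated with BV6, was measured by RNAseq. The authors sequenced stranded poly(A) libraries from both ends, aligned the reads with STAR 2.6.1d to GRCh38 and deposited raw counts per gene from a union model of the Ensembl isoforms, without normalization. The counting program, the use of strand, the treatment of mates and of reads with several positions were not given in the sources used here. The library totals were larger than the read numbers of the methods, so no counting intervals are given. Samples were grouped by their labels.

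These counts were tested with the quasi-likelihood test of edgeR 4.0.16 in R 4.3.3, two-sided and with the condition as the only term, after filterByExpr (at least 10 counts) and TMM scaling. Benjamini-Hochberg adjustment ran over all 23124 genes that passed. A gene was called at an adjusted p below 0.05. The study's methods name the Wald test of DESeq2 and no design formula. A standard error is the log2 fold change divided by the root of its F statistic, and CPM refers to the TMM library size. Experiments were compared in the 6 samples with a shared label by an F test beside the condition. The pairing comes from the BC label in the sample titles. Same-label samples deviated together from their group means, with r of 0.52, 0.32 and 0.20 over the paired samples and 0.46, 0.44 and 0.08 with untreated replicate 1 in the mean. In the latter, untreated replicate 4 was closer to BV6 replicate 3 (r of 0.26), and BV6 replicate 4 to untreated replicate 1 (r of 0.28), than to each other.

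Lengths, GC content and overlaps come from GENCODE 44 (GRCh38), which matched 37176 of 57189 genes, 36327 of them by symbol and 849 by an older symbol, and is a later annotation than that of the counts. Promoters come from RefSeq (GRCh38.p14). The members and the lists of further pathway genes and markers were chosen with earlier results of these data known. Named in the text are the members, further pathway genes that were called or, in each direction, up to 5 with the smallest p among those without overlap between the groups, and NF-κB targets as a check. P4HA2 and the 3 other further genes came from this rule, and SLC2A14 was named as a paralog. Alternatives were DESeq2 1.42.0 with and without the block, RLE factors, no filter, limma-voom (limma 3.58.1), the replicate block, leaving out each sample, and a GC correction (loess with span 0.5 per library). Blocked fits without 1 pair were added after the data had been seen. The edgeR and DESeq2 fits with and without the block, limma-voom, the GC correction with the block and the experiment tests were run on simulated counts. RLE factors, no filter, the GC correction without the block and the fits that leave out samples or pairs were not.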

Additional observations from a re-analysis of the deposited data

Results flagged for a closer look

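The level of ENO3 in untreated replicate 2 was 387 CPM and lay far below the other 3 untreated samples, which were at 480.3 to 498.5 CPM. The gap took 0.837 of the range of the 4 samples, above the 95% critical value of Dixon's test. This check was run on 41 genes in the untreated samples, and chance alone marks about 1 group in 20, so that a single mark is not unusual. Without untreated replicate 2 the log2 fold change of ENO3 was 0.26 in place of 0.34 (edgeR).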

How the results depend on the processing

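The median log2 fold change of the members stayed between -0.04 and 0.07 in the 23 alternatives. Of the 37 members, 16 kept their sign in all of them, 21 changed it in at least 1, and 28 were called in none. The counts of calls moved, and the cause was not tested.

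For the condition, 104 genes were called. The count was 408 with DESeq2, 242 without the filter, 206 with the GC correction and 38 to 89 when 1 sample was left out. With the replicate block it was 218, with DESeq2 and the block 514, on genes of known GC content with the block 232 and with GC correction and block 1170. Without pair 2, 3 or 4 the blocked fit called 272, 524 and 1530 genes, and with GC correction 242, 938 and 1326. Members called numbered 0 for the condition only, 1 with the replicate block, also on genes of known GC content, 2 with DESeq2 and the block (PKM and PFKFB3) and 5 with GC correction and block. Without pair 2, 3 or 4 the block gave 0, 3 and 2 members, and with GC correction the counts without pair 2, 3 or 4 were 3, 3 and 8. Of the further pathway genes, 1 was called with DESeq2, without the filter, with the GC correction, with the replicate block and with the block on genes of known GC content. DESeq2 with the block called 3, and GC correction with the block 7. Without pair 2, 3 or 4 the block called 1, 3 and 8 of them, and with GC correction 2, 4 and 8.

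For the experiment, 833 genes and 3 members were called. DESeq2's likelihood ratio test called 2138 and 8, no filter 4164 and 16, all 7 samples 66 and 1, and leaving out 1 pair 441 to 4043 and 2 to 12.

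These 7 libraries give a median standard error of 0.15 per member on the log2 scale, and differences as large as those of ENO3, PFKFB3 and PKM (1.27-fold, 1.38-fold and 1.40-fold) were not called for the condition only. CA9 and SLC16A3 are further limited by low counts. Pairs rest on 1 sample per condition each. Fits without a pair rest on 4 paired samples, and those for the condition also held untreated replicate 1, which has no partner.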
